A study of Mus musculus with 9 samples.

Results

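The 30 macrophage and leukocyte genes described here were taken by symbol from gene-level read counts of mouse cardiac outflow tract, the arterial pole of the embryonic heart. They are 30 of 48397 gene symbols counted in each of 9 libraries, and 27 of them were among the 16522 genes with enough reads to be tested. All samples were dissected at embryonic day 12.5 on the C57BL/6J background. The 4 wild-type libraries had the genotype Nkx2-5+/+. The 5 deletion libraries had the genotype Nkx2-5delta-enh/delta-enh, in which both alleles lack the enhancer that serves Nkx2-5, a cardiac transcription factor gene, in anterior second heart field progenitors. The labels do not say whether a library is 1 embryo or a pool. Nothing states that libraries of a group came from separate embryos, so the p-values here reflect library-to-library spread, which may be technical. A number in the name of each deposited count file was read as a litter, which is an assumption. It put wild types 1 and 2 with deletions 1 and 2 in a first litter, and wild types 3 and 4 with deletions 3 and 4 in a second, while deletion 5 alone carried another number. That number has the digits of the second litter's in another order, so deletion 5 may belong to the second litter. With deletion 5 kept apart, 22 of the 27 tested members differed between litters, beside 9.65% of all genes. Read as second litter, 25 of the 27 did, and the share over all genes in that reading is not reported here.

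Macrophages of the embryonic heart descend largely from yolk sac and fetal liver progenitors. They depend on the growth factor receptor Csf1r and on the transcription factor PU.1, which Spi1 encodes, and they are known for clearing dying cells and for roles in valve and vessel formation. Most of the 30 genes are transcribed in macrophages, while Ptprc, Coro1a, Laptm5, Cd52 and Spi1 are shared with other leukocytes. Pf4 is also a platelet gene, and Lyve1 a gene of lymphatic endothelium.

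The libraries held between 27707435 and 49094225 reads assigned to genes. Heart muscle RNA was present in every library. The 12 heart muscle genes summed to between 8065 and 18902 CPM (read counts scaled to a common library size, with TMM factors that correct for library composition). These genes do not tell the outflow tract from other parts of the heart. Deletion 2 stood apart, with 3384 CPM over 16 neuron and Schwann cell genes against 112 to 188 CPM in every other library. Tissue was not sorted, so a lower level in these bulk samples can mean fewer cells of a type or less RNA per cell, and the 2 cannot be told apart.

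PU.1 and related ETS factors bind purine-rich DNA around GGAA, and the start regions of 4 genes are printed here because they show where letters of that kind lie in 4 members that were lower in the second litter. Each window runs from 250 bases before to 50 after the transcription start in RefSeq (GRCm38.p6, the mm10 assembly), on the strand of the gene. Capitals mark AGGAAGT, which in all 4 windows lies on the opposite strand and so reads ACTTCCT. C1qb (chr4:136886151-136886450, minus strand) and C1qc (chr4:136892865-136893164, minus strand) belong to the complement gene cluster on chromosome 4, Ctss (chr3:95526536-95526835, plus strand) encodes cathepsin S, and Pf4 (chr5:90772185-90772484, plus strand) encodes platelet factor 4.
C1qb: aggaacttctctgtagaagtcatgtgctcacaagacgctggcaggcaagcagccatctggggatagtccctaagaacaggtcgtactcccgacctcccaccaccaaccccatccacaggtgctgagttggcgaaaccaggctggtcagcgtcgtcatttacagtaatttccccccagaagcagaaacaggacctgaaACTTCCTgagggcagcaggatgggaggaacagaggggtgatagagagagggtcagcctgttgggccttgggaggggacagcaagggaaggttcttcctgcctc
C1qc: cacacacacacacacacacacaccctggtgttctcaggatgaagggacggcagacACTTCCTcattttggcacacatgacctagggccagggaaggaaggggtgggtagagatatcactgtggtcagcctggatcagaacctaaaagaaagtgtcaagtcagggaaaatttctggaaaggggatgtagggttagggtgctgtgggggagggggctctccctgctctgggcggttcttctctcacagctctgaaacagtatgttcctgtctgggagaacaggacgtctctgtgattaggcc
Ctss: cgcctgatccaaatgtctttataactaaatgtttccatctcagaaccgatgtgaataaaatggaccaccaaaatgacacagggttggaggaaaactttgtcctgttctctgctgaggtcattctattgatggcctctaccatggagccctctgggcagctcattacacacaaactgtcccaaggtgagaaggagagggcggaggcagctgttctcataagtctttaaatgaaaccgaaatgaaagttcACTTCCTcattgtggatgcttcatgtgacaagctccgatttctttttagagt
Pf4: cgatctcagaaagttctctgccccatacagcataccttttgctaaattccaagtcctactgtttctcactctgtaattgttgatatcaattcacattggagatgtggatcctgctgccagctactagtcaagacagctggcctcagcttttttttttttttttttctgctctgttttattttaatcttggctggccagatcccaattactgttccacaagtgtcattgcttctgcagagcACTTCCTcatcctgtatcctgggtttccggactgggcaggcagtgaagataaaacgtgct

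The match began 53 bases before the start in C1qb, 195 in C1qc, 2 in Ctss and 10 in Pf4. Windows were searched for 22 of the 30 members. Members on chromosome 18 (Csf1r and Cd14) were left out by a rule that was not applied to the symbols used for comparison. AGGAAGT was present on either strand in 9 of the 22 members (Ptprc, Mrc1, Lyz2, C1qb, C1qc, Pf4, F13a1, Ctss and Folr2), or 40.9%, against 10.7% of all 27025 symbols with such windows. The longer GAGGAAGT, which contains the shorter motif, was present in 4 of the 22 (C1qc, Pf4, F13a1 and Ctss), or 18.2%, against 3.69%. Both motifs were chosen with the windows in view. A match is a run of letters, not evidence of binding, and no binding was measured.

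Together the 30 genes took 0.0178% to 0.0760% of assigned reads, between 6112 and 30801 reads per library. Their summed level was 718, 765, 565 and 491 CPM in the first litter, 178, 247, 233 and 275 CPM in the second and 259 CPM in deletion 5, where values within a litter are given here and in all later sentences in the order wild type, wild type, deletion, deletion. Every first-litter library held more than every library outside it, while the wild-type and deletion ranges overlapped. The lowest sum of the first litter was 491 CPM in deletion 2, and the highest outside it was 275 CPM in deletion 4.

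**Figure D1:**
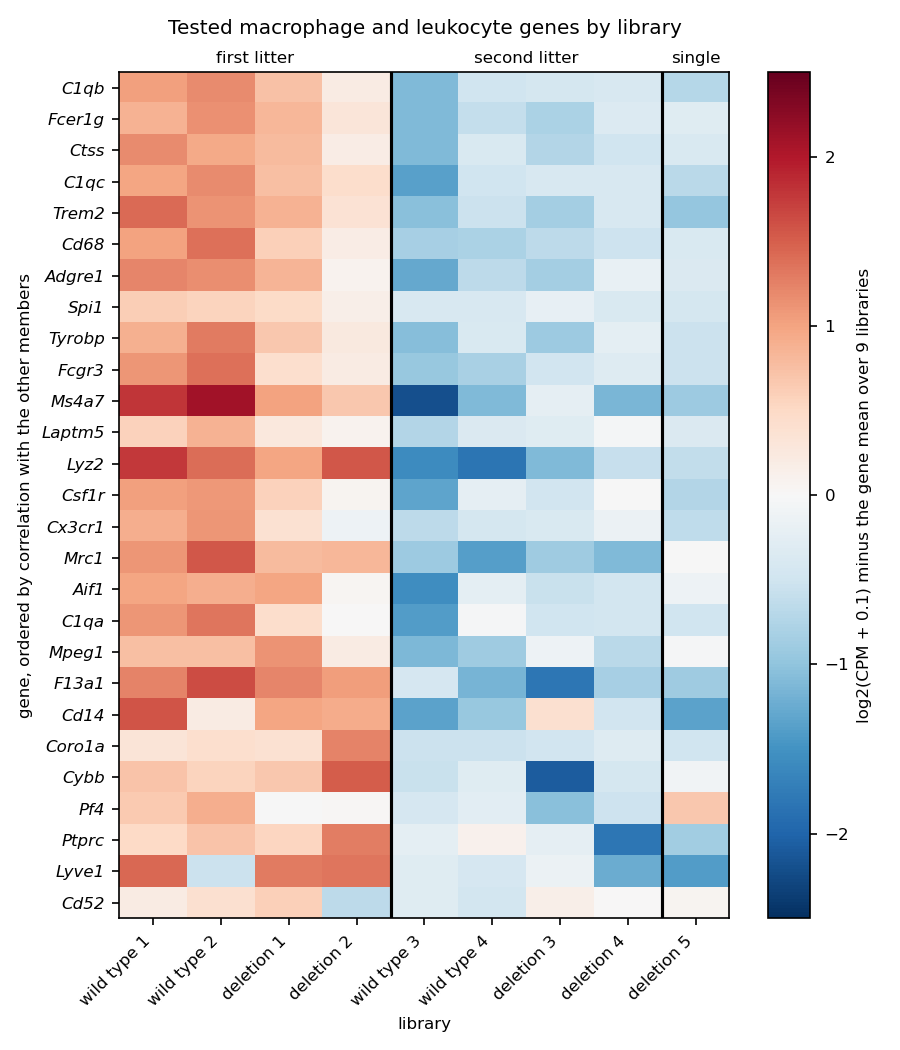
Colour gives log2(CPM + 0.1) of each of the 27 tested genes (rows) in each of 9 libraries (columns, grouped by litter), minus the mean of that gene over the libraries. The first 4 columns are mostly red and the last 5 mostly blue, with exceptions in Cx3cr1, Cd14, Lyve1, Pf4, Ptprc and Cd52.

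Levels of different genes were compared per kilobase of merged exons from the GENCODE vM21 annotation of mm10. On that scale C1qb was the most abundant member in the first litter, at 54.1 ± 14.6 CPM per kilobase (SD, n = 4). It was followed by the lysozyme gene Lyz2 at 41.5 ± 9.03, Ctss at 37.1 ± 10.1, Tyrobp at 34.3 ± 10.4 and Fcer1g at 30.2 ± 6.94 CPM per kilobase. Neighbours in this order differed by less than the larger SD of the pair. In the second litter C1qb stood at 20.3 ± 4.14 and Lyz2 at 6.58 ± 2.61 CPM per kilobase, so that Lyz2 had moved below Ctss, Tyrobp, Fcer1g, Pf4, C1qc and C1qa. At the other end, Ptprc, which encodes the pan-leukocyte antigen CD45, held 0.367 ± 0.103 CPM per kilobase in the first litter, over merged exons of 18313 bases.

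**Figure D2:**
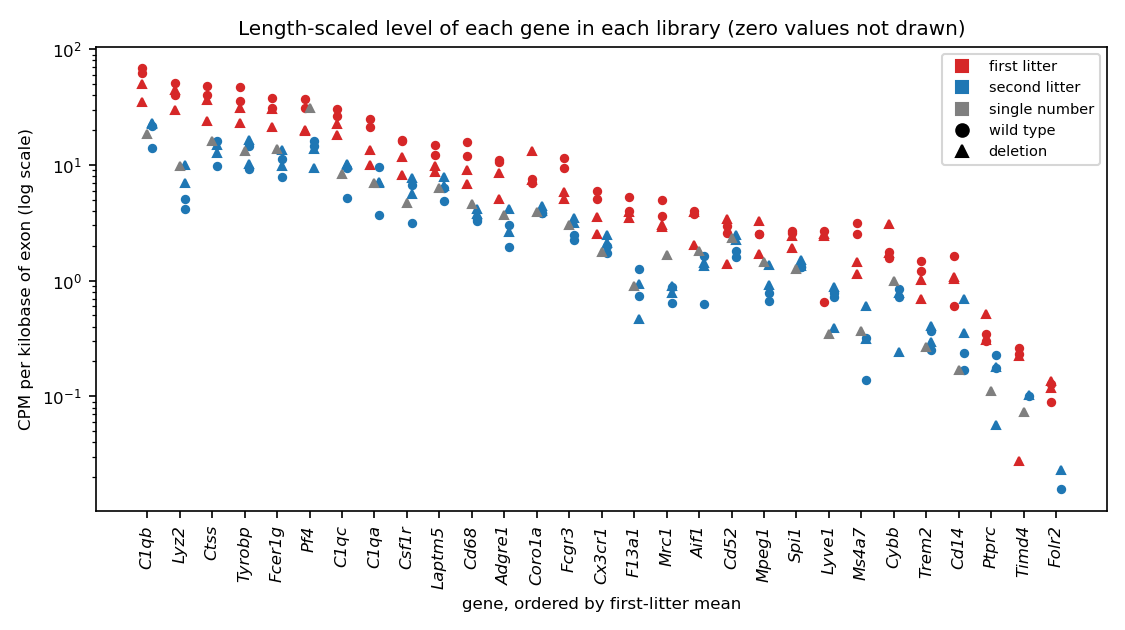
Each point is a library's CPM per kilobase of exon (log scale) for the 29 members with any read, ordered by their first-litter mean; colour gives the litter and shape the genotype. First-litter points lie above second-litter points for most genes. Within the first litter, circles lie above triangles for many genes, such as Csf1r and C1qb, and are mixed with them for others, such as Mpeg1 and Coro1a.

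Of the genes often used to mark resident macrophages of the adult heart, Cd163, Timd4 and Folr2 were barely counted or at 0, while Lyve1 and Mrc1 were counted in every library. Cd163, a haemoglobin scavenger receptor gene, had 0 counts in all 9 libraries. A floor of 3 counts was set for a count of 0, equal to 0.0604 to 0.107 CPM depending on the library. That floor is an approximate limit and not a hard bound. Timd4, a phosphatidylserine receptor gene, had at most 23 counts, with 0.501, 0.571, 0.0604 and 0.489 CPM in the first litter, 0, 0.218, 0.223 and 0 CPM in the second and 0.159 CPM in deletion 5. Folr2, a folate receptor gene, had at most 9 counts, with 0.139, 0.199, 0.181 and 0.209 CPM in the first litter, 0, 0.0242, 0 and 0.0356 CPM in the second and 0 CPM in deletion 5, and 63.1% of its exon bases overlap Gm10602 on the opposite strand. The highest values of both fell in the first litter, but deletion 1 held only 3 counts of Timd4. These 3 genes were too low to be tested. Lyve1, the hyaluronan receptor gene of resident macrophages and lymphatic endothelium, was counted in every library, at 7.84, 1.91, 7.11 and 7.33 CPM in the first litter, 2.27, 2.11, 2.56 and 1.14 CPM in the second and 1.01 CPM in deletion 5. Wild type 2 was low within the first litter, so the litters overlapped for Lyve1.

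Deletion against wild type is the comparison the series was designed for, and no member passed the test (edgeR quasi-likelihood, adjusted p under 0.05 over all 16522 genes): 0 of 27 were called, beside 0% of all genes. In this fit, which has no litter term, none of the 27 had an unadjusted p below 0.05 either, which 5.27% of all genes (870) did. DESeq2 called 0 members beside 0.201% of all genes. Of the 27, 21 had a log2 fold change below 0 and 6 above, with a median of -0.39 beside 0.00 over all genes and 49.4% of them below 0. The range ran from -0.97 (SE 0.82) for Ms4a7, a macrophage membrane protein gene, to 0.25 (SE 0.39) for Coro1a, an actin regulator of leukocytes. The smallest adjusted p was 0.902. In 0 of 27 members did all wild types exceed all deletions, and in 0 the reverse, where the groups did not overlap in that way in 0.974% and 0.829% of all genes. This count cannot speak to genotype in 24 of the 27. There every first-litter library exceeded every second-litter one, and each litter holds both genotypes, so the genotypes had to overlap.

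Csf1r, the receptor of the macrophage growth factors Csf1 and Il34, averaged 61.3 ± 38.7 CPM over the wild types (SD, n = 4) against 43.96 ± 15.7 CPM over the deletions (SD, n = 5), and its log2 fold change was -0.48 (SE 0.45). C1qb averaged 45.2 ± 30.1 CPM against 32.6 ± 14.3 CPM, and its log2 fold change was -0.47 (SE 0.48). Lyz2 averaged 33.1 ± 31.8 CPM against 26.7 ± 21.6 CPM, with -0.31 (SE 0.84). For each of these the SD within wild type exceeded the difference of the means. That SD spans both litters, and this fit has no litter term, so litter differences enter its standard errors. The pooled SD of the members' mean log2 CPM was 0.83 within genotypes and 0.23 within the 2 litters. Ptprc was at -0.16 (SE 0.54) by genotype. The signs of these differences were not stable: fitted on 1 litter alone, the median over members was -0.52 in the first and 0.26 in the second. It was 0.17 in limma voom with sample weights, and leaving out single libraries moved it between -0.66 (without wild type 3) and -0.06 (without wild type 2).

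The litters were compared next. Of the 27 members, 22 were lower in the second litter than in the first and 0 were higher (edgeR, adjusted p under 0.05, genotype as a covariate). Over all genes 4.17% were lower and 5.48% higher by the same rule, 1594 genes or 9.65% in all. The median log2 fold change of the members was -1.45, beside -0.03 over all genes, and all 27 were below 0, as were 53.4% of all genes. The 4 first-litter libraries exceeded the 4 of the second without overlap in 24 of 27 members, where 8.36% of all genes did so, and exceeded deletion 5 as well in 23, where 5.79% did. DESeq2 called 26 of the 28 members to which it gave an adjusted p lower in the second litter, beside 9.04% of all genes. The 5 members not called by edgeR were Ptprc, Csf1r, Cd14, Lyve1 and Cd52.

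With each library left out in turn, the members' median stayed between -1.62 and -1.24, but the calls depended on single libraries. Calls fell from 22 to 7 members without wild type 3, to 7 without wild type 4 and to 11 without deletion 3, and lay between 16 and 23 without any other library. The calls over all genes fell to 346, 391 and 420 without those same 3 libraries, and to 982 without wild type 1 and 784 without deletion 4. Mrc1, Lyz2, C1qc, Fcer1g, F13a1 and Ctss were called in every one of these 9 fits. What separates the numbers in the file names besides litter, such as dissection day or exact embryo age, is not given in the sources used here and cannot be told apart from litter.

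**Figure D3:**
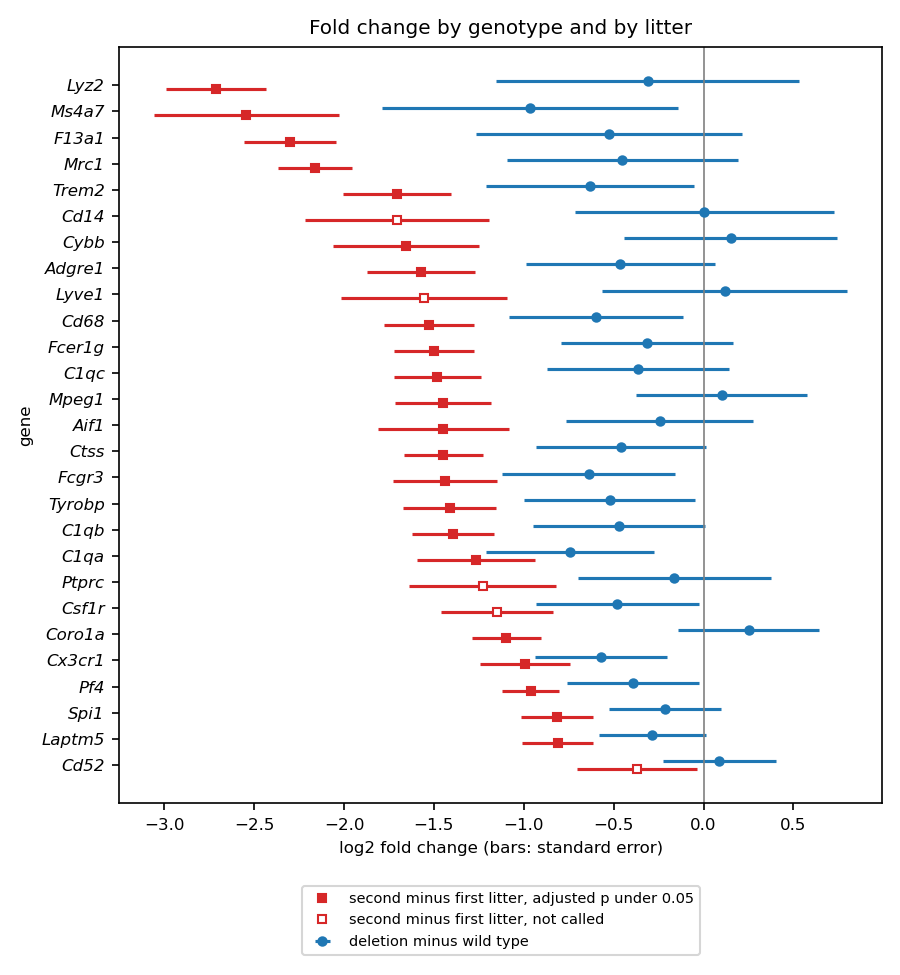
Points are log2 fold changes of the 27 tested genes with standard errors, blue for deletion minus wild type and red for second minus first litter; filled squares mark the 22 genes with an adjusted p under 0.05. All red points lie below 0, from -0.37 (Cd52) to -2.71 (Lyz2), while blue points lie between -0.97 and 0.25 with no call.

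Among receptors and the lineage factor, Csf1r was at 92.5, 95.5, 67.7 and 47.6 CPM in the first litter, 18.1, 39.01, 32.6 and 44.8 CPM in the second and 27.2 CPM in deletion 5. All 4 first-litter values exceeded those of the other 5 libraries, though deletion 2 and deletion 4 lay close together. Its litter log2 fold change was -1.15 (SE 0.31) with an adjusted p of 0.0548. Of its exons 873 bases (15.1%) overlap Hmgxb3 on the opposite strand, and reads there may be missing or misplaced. Cx3cr1, the fractalkine receptor gene of tissue macrophages, was at 23.1, 26.5, 16.05 and 11.3 CPM in the first litter, 7.79, 9.03, 9.44 and 11.1 CPM in the second and 7.92 CPM in deletion 5. Its litter difference was -0.99 (SE 0.25), adjusted p = 0.0415. Spi1, the PU.1 gene, was at 7.23, 6.95, 6.60 and 5.20 CPM in the first litter, 3.55, 3.53, 4.06 and 3.60 CPM in the second and 3.43 CPM in deletion 5. Its litter difference of -0.81 (SE 0.20, adjusted p = 0.0384) and that of Laptm5 were the smallest of the 22 called members, although the litters did not overlap. Adgre1, which encodes the F4/80 antigen, was at 35.9, 34.3, 27.8 and 16.4 CPM in the first litter, 6.28, 9.73, 8.46 and 13.5 CPM in the second and 11.95 CPM in deletion 5. Its difference was -1.57 (SE 0.30), adjusted p = 0.0177. Trem2, a lipid-sensing receptor gene of macrophages, was at 7.34, 5.99, 4.97 and 3.45 CPM in the first litter, 1.25, 1.82, 1.45 and 2.00 CPM in the second and 1.33 CPM in deletion 5, a difference of -1.71 (SE 0.30) with an adjusted p of 0.0138.

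The adaptor genes Tyrobp and Fcer1g, whose proteins pass on signals of Trem2 and of Fc receptors, were both lower in the second litter. Fcer1g was at 27.2, 33.2, 26.6 and 18.5 CPM in the first litter, 6.86, 9.88, 8.63 and 11.7 CPM in the second and 12.03 CPM in deletion 5, a litter difference of -1.50 (SE 0.22), adjusted p = 0.00851. Tyrobp was at 23.98, 31.7, 20.5 and 15.2 CPM in the first litter, 6.13, 9.81, 6.82 and 10.9 CPM in the second and 8.87 CPM in deletion 5, a litter difference of -1.41 (SE 0.26), adjusted p = 0.0155. In both genes deletion 2 was the lowest first-litter library. Fcgr3, a low-affinity Fc gamma receptor gene, was at 16.4, 19.8, 10.1 and 8.83 CPM in the first litter, 3.89, 4.29, 5.46 and 6.02 CPM in the second and 5.21 CPM in deletion 5. Its difference was -1.44 (SE 0.29), adjusted p = 0.0204, and reads common to other Fc gamma receptor genes may be missing or misplaced. Among 15 tested genes of the signalling chain behind these adaptors, 1 was lower in the second litter and 0 higher, a share near the 4.17% of all genes that were lower. It was the Src family kinase gene Lyn, at -0.55 (SE 0.14) with an adjusted p of 0.0455. The median of that list was -0.45.

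C1qa, C1qb and C1qc encode the 3 chains of complement component C1q, which macrophages secrete, and lie side by side on chromosome 4 (mm10, minus strand) between 136880129 and 136898803. C1qa was at 22.1, 25.95, 13.97 and 10.3 CPM in the first litter, 3.81, 10.02, 7.27 and 7.38 CPM in the second and 7.22 CPM in deletion 5. C1qb was at 67.2, 74.8, 54.97 and 38.4 CPM in the first litter, 15.3, 23.4, 24.4 and 24.98 CPM in the second and 20.1 CPM in deletion 5. C1qc was at 50.8, 58.5, 43.4 and 34.97 CPM in the first litter, 9.998, 18.2, 19.5 and 19.4 CPM in the second and 16.1 CPM in deletion 5. All 3 were highest in wild type 2 and lowest in wild type 3, and for C1qa deletion 2 stood next to wild type 4. The litter differences were -1.27 (SE 0.33) for C1qa (adjusted p = 0.0462), -1.40 (SE 0.23) for C1qb (0.0113) and -1.48 (SE 0.24) for C1qc (0.0113). Of 12 tested genes of other complement components and receptors, 2 were lower in the second litter and 0 higher. Among them C3ar1, the C3a receptor gene, was at -1.42 (SE 0.36).

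The 4 largest litter differences were those of Lyz2, Ms4a7, F13a1 and Mrc1. Mrc1, the mannose receptor gene, was at 23.2, 31.7, 18.7 and 19.1 CPM in the first litter, 5.64, 4.09, 5.71 and 4.95 CPM in the second and 10.7 CPM in deletion 5. The second litter lay at or below 5.71 CPM and the first at or above 18.7, a log2 difference of -2.16 (SE 0.20) with an adjusted p of 0.00349; deletion 5 fell between them. F13a1, the gene of coagulation factor XIII A, was at 26.8, 35.2, 26.4 and 23.5 CPM in the first litter, 8.46, 4.99, 3.15 and 6.34 CPM in the second and 6.06 CPM in deletion 5. Its difference was -2.30 (SE 0.26), adjusted p = 0.00389. Lyz2 was at 67.7, 52.7, 39.4 and 58.8 CPM in the first litter, 6.66, 5.52, 9.19 and 13.3 CPM in the second and 12.9 CPM in deletion 5. Each first-litter value was above 39 CPM and every other value below 14, a difference of -2.71 (SE 0.28) with an adjusted p of 0.00384. Reads common to Lyz2 and its similar neighbouring copy Lyz1 may be missing or misplaced, and Lyz1 itself held 0 to 98 counts, the most in deletion 2. Ms4a7 was at 11.2, 13.9, 6.48 and 5.13 CPM in the first litter, 0.610, 1.43, 2.70 and 1.39 CPM in the second and 1.65 CPM in deletion 5, a difference of -2.54 (SE 0.51) with an adjusted p of 0.0201.

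Ctss, Cd68, Laptm5, Mpeg1 and Aif1 were each lower in the second litter. Other lysosomal genes outside the set, such as the cathepsin genes Ctsb at -0.09 (SE 0.10) and Ctsd at -0.07 (SE 0.11), were not called. Ctss was at 65.1, 54.96, 49.2 and 32.3 CPM in the first litter, 13.2, 21.96, 17.2 and 20.2 CPM in the second and 21.99 CPM in deletion 5, a difference of -1.45 (SE 0.22), adjusted p = 0.00926. Cd68, a lysosomal membrane glycoprotein gene, was at 15.2, 19.7, 11.4 and 8.55 CPM in the first litter, 4.16, 4.29, 4.70 and 5.24 CPM in the second and 5.76 CPM in deletion 5, a difference of -1.53 (SE 0.25), adjusted p = 0.0110. Laptm5, a lysosomal protein gene of blood cells, was at 45.9, 56.2, 37.2 and 32.8 CPM in the first litter, 18.6, 23.97, 24.97 and 29.6 CPM in the second and 23.8 CPM in deletion 5. Its litter difference was -0.81 (SE 0.20), adjusted p = 0.0374. Mpeg1, which encodes the pore-forming protein perforin-2, was highest in deletion 1, at 10.9, 10.9, 14.1 and 7.40 CPM in the first litter, 2.91, 3.41, 5.90 and 3.99 CPM in the second and 6.27 CPM in deletion 5, with a difference of -1.45 (SE 0.27), adjusted p = 0.0157. Aif1, the gene of the macrophage marker IBA1, was at 6.09, 5.76, 6.06 and 3.14 CPM in the first litter, 0.959, 2.52, 2.03 and 2.17 CPM in the second and 2.74 CPM in deletion 5, with a difference of -1.45 (SE 0.36), adjusted p = 0.0409.

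Ptprc, Coro1a and Cybb all had their highest value in deletion 2. Ptprc was at 5.45, 6.36, 5.60 and 9.49 CPM in the first litter, 3.23, 4.16, 3.28 and 1.03 CPM in the second and 2.05 CPM in deletion 5. Its lowest value, 29 counts, was in deletion 4, and the litters did not overlap; the litter difference was -1.23 (SE 0.41), adjusted p = 0.0915. Coro1a was at 19.4, 20.9, 20.4 and 37.02 CPM in the first litter, 10.8, 10.7, 11.2 and 12.4 CPM in the second and 10.996 CPM in deletion 5. The other 3 first-litter values lay close together, and its litter difference was -1.10 (SE 0.19), adjusted p = 0.0133. Cybb, the gene of the NADPH oxidase subunit gp91phox, was at 10.2, 9.19, 9.97 and 17.9 CPM in the first litter, 4.16, 4.96, 1.39 and 4.53 CPM in the second and 5.82 CPM in deletion 5. Deletion 3 was the lowest library, and the litter difference was -1.66 (SE 0.41), adjusted p = 0.0380. The neuron and Schwann cell sum was 3384 CPM in deletion 2, and its part in the high values of these 3 genes there was not tested. Without deletion 2 the genotype difference of Coro1a was -0.16 in place of 0.25.

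Pf4 and Cd52 were high or low in other libraries than most members. Pf4 was at 22.3, 26.7, 14.1 and 14.5 CPM in the first litter, 10.6, 11.7, 6.82 and 9.83 CPM in the second and 22.6 CPM in deletion 5. Deletion 5 stood among the first-litter values, unlike for most members, and the litter difference was -0.96 (SE 0.16), adjusted p = 0.0115. The summed level of 15 megakaryocyte and platelet genes was 338, 357, 483 and 399.9 CPM in the first litter, 829.4, 839, 798 and 671 CPM in the second and 981 CPM in deletion 5, of which Thbs1, a matrix protein gene of many cell types, made up 244 to 905 CPM. Cd52, a small surface glycoprotein gene of leukocytes, was at 3.09, 3.53, 4.05 and 1.64 CPM in the first litter, 2.12, 1.89, 2.95 and 2.67 CPM in the second and 2.79 CPM in deletion 5. Its litters overlapped, with a difference of -0.37 (SE 0.33) and an adjusted p of 0.519, and 14.5% of its exon bases overlap Crybg2 on the opposite strand. Cd14, a lipopolysaccharide co-receptor gene, had 10 to 102 counts and a difference of -1.71 (SE 0.51), adjusted p = 0.0674.

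Whether the deletion acted differently in the litters was tested as an interaction over the 8 libraries of the 2 litters. In the first litter 23 of 27 members had a log2 fold change below 0 for deletion against wild type, beside 49.9% of all genes. The members' median there was -0.54. In that litter 9 of the 27 had an unadjusted p below 0.05 (edgeR), as did 2226 of 16303 genes, and 0 members passed after adjustment. Within the second litter, 22 of 27 members were above 0 and 5 below, with a median of 0.27, where 49.6% of all genes were below 0. There 1 member had an unadjusted p below 0.05 (edgeR), as did 435 of 16303 genes, and 0 members passed after adjustment. For Csf1r the values were -0.70 (SE 0.34) in the first litter and 0.43 (SE 0.34) in the second, and for C1qb -0.60 (SE 0.23) and 0.35 (SE 0.23). The difference between litters itself passed for 0 of 27 members in edgeR, beside 0.0123% of all genes, with a smallest adjusted p of 0.355 for Fcgr3. The 2 genes called were the near-identical beta globin genes Hbb-bs at 3.52 (SE 0.32) and Hbb-bt at 3.42 (SE 0.31), both with an adjusted p of 0.0333 (edgeR). The 16 tested erythroid genes had a median interaction of 2.91, above 0 in 14, beside the members' median of 0.79, above 0 in 22 of 27. The part of blood content in the members' values was not tested. Unadjusted p-values fell below 0.05 in 10 of 27 members, all with an interaction above 0, and in 8.15% of all genes. DESeq2 called 1 member, beside 1.12% of all genes: Fcgr3, with an interaction of 1.41 (SE 0.37) and a DESeq2 adjusted p of 0.0205. Each litter holds 2 libraries of a genotype, which limits what this test can detect.

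Co-variation was described over the 9 libraries by Pearson correlation of log2 CPM, without a test, since the pairs share the same libraries. Over the 351 pairs of tested members the median correlation was 0.83, and 35.9% of pairs exceeded 0.9. Over all pairs of the 16522 genes the median was -0.003, and 0.239% exceeded 0.9. The correlation was lower within litters, with each litter's mean removed from each gene. Over the 8 libraries of the 2 litters the median was then 0.42. Of the 351 member pairs, 9.12% exceeded 0.9 and 107 were below 0. The same values over all gene pairs were not computed. Against the mean of the other members, C1qb (0.984), Fcer1g (0.983), Ctss (0.980), C1qc (0.980) and Trem2 (0.976) were closest, while Cd52 (0.455), Lyve1 (0.594), Ptprc (0.621), Pf4 (0.651) and Cybb (0.689) were farthest. Wild type 2 was the highest library for 14 of the 27 and wild type 1 for 8, and wild type 3 was the lowest for 17.

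The 10 genes outside the set whose log2 CPM followed the members' mean most closely over the 9 libraries were Fmo2, Sepp1, Gpm6a, Moxd1, Igfbp6, Gm20744, Hbb-bs, Ms4a6b, Ssh3 and Matn2, with correlations from 0.992 down to 0.975. Of 16495 genes compared, 206 exceeded 0.9. Ms4a6b belongs to the same gene family as Ms4a7. Sepp1, the selenoprotein P gene, was at 745, 681, 447 and 426 CPM in the first litter, 134, 144, 162 and 172 CPM in the second and 215 CPM in deletion 5. Fmo2, a flavin monooxygenase gene, was at 72.5, 48.7, 26.4 and 16.99 CPM in the first litter, 0.436, 1.48, 2.12 and 2.17 CPM in the second and 2.36 CPM in deletion 5. Hbb-bs, an adult beta globin gene whose reads can be shared with the near-identical Hbb-bt, was at 1267, 1688, 321 and 271 CPM in the first litter, 16.8, 25.8, 46.4 and 51.95 CPM in the second and 68.5 CPM in deletion 5. All 3 separated the litters as the members did. The summed level of the 16 erythroid genes counted did not: it was 6722, 10406, 4477 and 1986 CPM in the first litter, 1921, 2328, 5194 and 3485 CPM in the second and 5900 CPM in deletion 5.

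Genes of leukocytes outside the set were read from further lists. Of 37 tested myeloid and pan-leukocyte genes, 13 were lower in the second litter and 0 higher, with a median of -0.97. Among them the transcription factor gene Maf was at -1.30 (SE 0.14, adjusted p = 0.00384), the lectin gene Clec4n at -3.94 (SE 0.56, adjusted p = 0.00829), the adhesion receptor gene Cd48 at -2.15 (SE 0.41, adjusted p = 0.0179) and its family member Cd84 at -1.63 (SE 0.32, adjusted p = 0.0184). Of 23 tested phagocytosis and scavenger genes, 7 were lower and 0 higher, with a median of -0.15. They included the fatty acid transporter gene Cd36 at -1.17 (SE 0.11), which endothelium also expresses, the scavenger receptor gene Msr1 at -2.84 (SE 0.31), Apoe at -0.61 (SE 0.12) and the cholesterol exporter gene Abca1 at -0.66 (SE 0.14). By genotype, edgeR called 0 genes in each of these lists, as it did over all genes. In the monocyte and neutrophil list, 7 of 11 tested genes had genotype values above 0 and 4 below, with a median of 0.92. The neutrophil genes S100a8, S100a9 and Ngp were at 4.60 (SE 1.59), 3.88 (SE 1.62) and 5.87 (SE 1.82), each with an adjusted p of 0.896 in edgeR. They were chosen after their values were seen. Mpo was at 0.40 (SE 1.16) and Prtn3 at -0.05 (SE 0.41). S100a8 was at 1.08, 0.224, 29.1 and 1.05 CPM in the first litter, 0.174, 0, 0.0557 and 5.24 CPM in the second and 9.32 CPM in deletion 5, so that deletions 1, 4 and 5 were high and deletions 2 and 3 lay within the wild-type range.

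Ligands of the macrophage receptors were given whatever their p. Csf1 was at 29.5, 22.8, 22.9 and 20.1 CPM in the first litter, 28.5, 20.7, 24.7 and 27.8 CPM in the second and 20.8 CPM in deletion 5, with litters that overlapped and a difference of 0.10 (SE 0.15), adjusted p = 0.729. Il34 was at 0.612, 0.646, 0.644 and 0.558 CPM in the first litter, 0.174, 0.630, 0.251 and 0.178 CPM in the second and 0.212 CPM in deletion 5, a low level with litters that overlapped. Cx3cl1, the ligand of Cx3cr1, was at 15.8, 16.7, 9.83 and 19.5 CPM in the first litter, 18.9, 17.1, 17.5 and 15.6 CPM in the second and 15.5 CPM in deletion 5, a difference of 0.16 (SE 0.20), adjusted p = 0.644. Of 14 tested ligand genes 3 were lower in the second litter and 0 higher, and these were the chemokine genes Ccl9 at -2.14 (SE 0.27), Ccl6 at -2.82 (SE 0.68) and Ccl24, which held 0.705 to 1.17 CPM in the first litter and at most 0.0872 CPM in the second. Ccr2, the chemokine receptor gene of monocytes, was at 2.25, 1.96, 0.765 and 1.95 CPM in the first litter, 0, 0.145, 0.473 and 0.249 CPM in the second and 0.558 CPM in deletion 5. Its litters did not overlap, but with a difference of -3.16 (SE 0.87) its adjusted p was 0.0527.

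Markers of other cells are given by their summed levels. The 16 endothelial and endocardial genes summed to 1098 to 1307 CPM in the first litter and 1126 to 1343 CPM in the second. The 10 lymphatic genes, from a cell type that also expresses Lyve1, summed to 350.0 to 508 CPM and 335 to 374 CPM, with 1 gene (Mmrn1) lower in the second litter and 1 (Foxc2) higher. The 12 mast cell genes summed to 47.0 to 82.5 CPM and 46.7 to 57.5 CPM; Tpsab1, Fcer1a, Mrgprb1 and Mrgprb2 were at 0 in all libraries, and the mast cell protease gene Cpa3 was lower in the second litter at -3.41 (SE 0.57). The 18 lymphoid genes summed to 25.2 to 36.3 CPM and 45.8 to 62.0 CPM, with Cd3e, Cd3d and Ncr1 at 0 in all libraries, and the 1 called, Gata3, was higher in the second litter. Gata3, which other cells also express, made up 12.96 to 53.98 CPM of these sums, while the other 3 tested were at -1.29 (SE 0.41) for Cd79b, -1.05 (SE 0.61) for Thy1 and -0.37 (SE 0.31) for Lck. Of the 12 smooth muscle and cushion mesenchyme genes 4 were higher in the second litter and 0 lower, with sums of 2827 to 3592 CPM and 3950 to 4593 CPM. By p, the genes named from these lists were Has2 (2.01, SE 0.33), Vcan (1.58, SE 0.33), Sox9 (1.54, SE 0.33) and Twist1 (0.77, SE 0.20) of cushion mesenchyme. Of the endothelial list 5 genes were lower and 3 higher, among them Emcn (-0.70, SE 0.12), Cldn5 (-1.37, SE 0.28), Flt1 (0.43, SE 0.09) and Nfatc1 (0.81, SE 0.15). The matrix gene Fn1 (0.71, SE 0.14), the platelet receptor gene Gp1ba (1.15, SE 0.31), Thbs1 (1.19, SE 0.18), the cardiac factor gene Gata4 (0.80, SE 0.10) and the erythroid factor gene Klf1 (1.99, SE 0.30) were higher in the second litter. The part of other cell types in the level of the members was not tested.

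**Figure D4:**
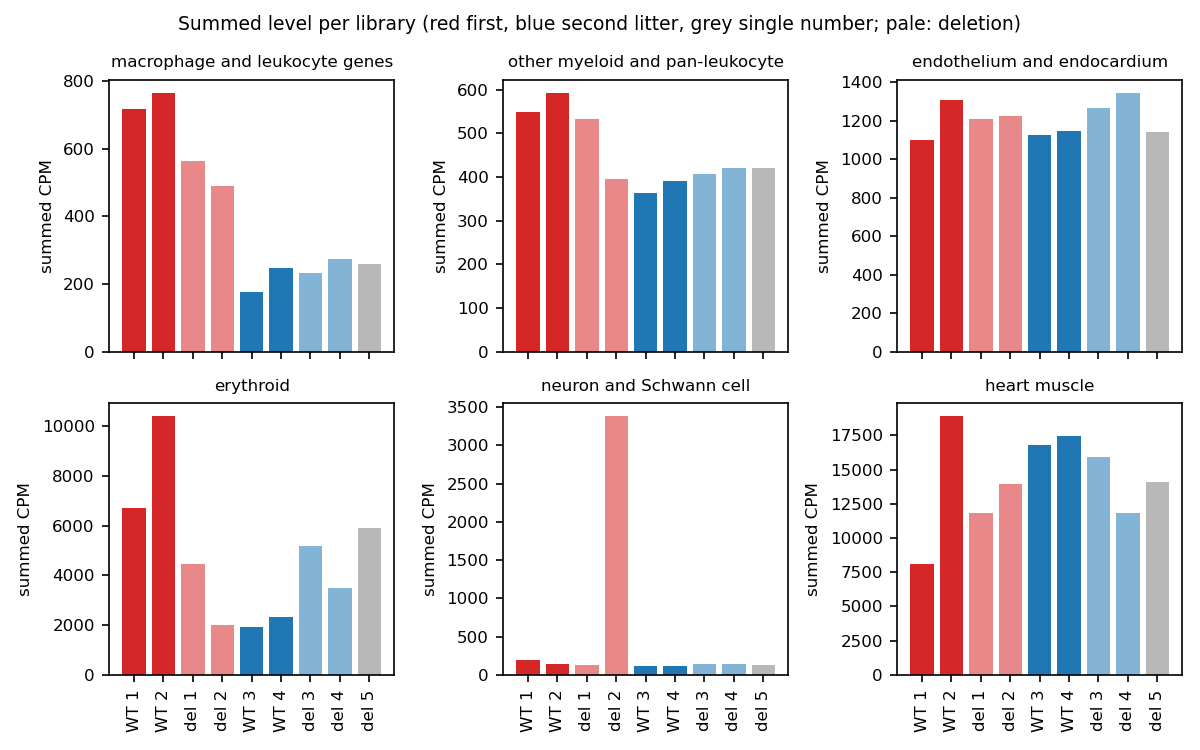
Bars give the summed CPM of 6 gene lists in each of 9 libraries, ordered by litter (axes start at 0 and differ between panels). The macrophage and leukocyte genes separate the first litter from the other 5 libraries, whereas the endothelial sums overlap between litters, and the neuron and Schwann cell genes stand out in deletion 2 alone.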

How the data were processed

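For each library the authors deposited a table of raw read counts by gene symbol. STAR 2.5.0c, Picard, HTSeq 0.6.0, DESeq2 and mm10 are named in the submitters' processing notes; the sources used here do not give their order, the annotation or the strand setting. Per the labels' protocols, total RNA went into SMART-Seq libraries for small inputs. Rows without a gene name (5, with 20.6% to 23.5% of reads) were left out.

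Counts were tested with edgeR 4.0.16 (R 4.3.3; quasi-likelihood, robust, TMM, filterByExpr with a minimum count of 10, Benjamini-Hochberg, two-sided, threshold 0.05). Standard errors follow from the F statistic. The terms were genotype alone, litter with genotype (deletion 5 its own level, adding nothing), and their interaction without deletion 5. Alternatives used DESeq2 1.42.0, limma 3.58.1, other factors, filters, litter terms and left-out libraries. log2 CPM used a prior count of 2. The procedure was tested on simulated data. No 2 libraries of a group agreed within sampling noise.

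Titles number the replicates 1 to 4 in both genotypes. Pairs with a common number had correlated deviations from their genotype means (0.242, 0.137, 0.227 and 0.176). Each pair lies within 1 litter, and pairs of unlike number within a litter were not compared. The values therefore cannot tell pairing by number from litter. Replicate numbers were used only as a block in an alternative genotype fit.

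Members and lists were chosen with earlier results of these data known. Members were given a value in every library by role or because they passed a test, up to 4 called genes were named per further list (some genes of these lists are not reported here), and the 10 most alike genes by correlation. Fcgr3 in the interaction was singled out after its value was seen.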

Additional observations from a re-analysis of the deposited data

Results flagged for a closer look

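In 9 of 108 groups of libraries examined (each of 27 genes in both genotypes and both litters), 1 library lay far from the others by Dixon's criterion on log2 CPM, which chance meets in about 1 group in 20. Deletion 2 was apart within the first litter in 3 genes: it was low for Aif1, at 3.14 CPM against 5.76 to 6.09 CPM, and high for Coro1a, at 37.0 CPM against 19.4 to 20.9 CPM, and for Cybb, at 17.9 CPM against 9.19 to 10.2 CPM. Lyve1 met it both in wild type, where wild type 1 held 7.84 CPM against 1.91 to 2.27 CPM, and in the first litter, where wild type 2 held 1.91 CPM against 7.11 to 7.84 CPM. In the second litter wild type 3 was low for C1qb, at 15.35 CPM against 23.4 to 25.0 CPM, and for C1qc, at 9.998 CPM against 18.2 to 19.5 CPM. Deletion 3 was low there for Cybb, at 1.39 CPM against 4.16 to 4.96 CPM, and high for Spi1, at 4.06 CPM against 3.53 to 3.60 CPM.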

How the results depend on the processing

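By genotype, 0 members were called under every alternative and in every fit without 1 library. Calls over all genes went from 0 to 38 with DESeq2, 4 with limma voom and 6 in the second litter alone, and to between 0 and 1 without single libraries. With the replicate number as a block 0 genes were called and the members' median was -0.14, and the replicate block changed no call. The median moved from -0.39 to 0.17 with limma voom, 0.26 in the second litter and 0.28 with deletion 5 added to it, and lay between -0.66 and -0.06 without single libraries. Of the 6 genes followed by genotype under each alternative (Ptprc, Csf1r, Lyz2, C1qb, Ms4a7 and Coro1a), none called, signs changed as follows. Csf1r was at 0.17 with limma voom, 0.43 in the second litter and 0.28 with deletion 5 added; C1qb at 0.17, 0.35 and 0.26; Ms4a7 at 0.67, 1.00 (0.9974) and 0.90; Lyz2 at 0.79, 0.88 and 0.95, at 0.25 with the replicate block, and at 0.27 and 0.35 with litter as a factor (deletion 5 apart, or in the second litter). Ptprc was at 0.37 within the first litter. Without single libraries Lyz2 lay between -0.82 and 0.30, Ptprc between -0.67 and 0.10 and Coro1a between -0.16 and 0.43; the causes were not tested.

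By litter, 1594 genes and 22 members became 3141 and 26 with DESeq2. The counts lay between 346 and 1717 genes and 7 and 23 members without single libraries, and the members' median between -1.62 and -1.24; no member changed sign under any litter alternative. For the interaction, 2 genes became 10 with deletion 5 read as second litter, 184 with DESeq2 (1 member) and 0 to 241 (without deletion 1) when single libraries were left out, with 0 members called in edgeR. Members with under 100 reads in some libraries, among them Ptprc, Cd14 and Lyve1, carry the most counting error.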
